A study of Sus scrofa with 2 samples.

Results

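The genes described here encode cytosolic ribosomal proteins in single cells from a back muscle of piglets, the longissimus dorsi. Every feature whose symbol reads RPL, RPS, RPLP or RPSP followed by a number, with at most a short suffix, was taken, and this gave 55 of 21301 features. Of these, 32 belong to the large and 23 to the small ribosomal subunit. All but 1 were detected: RPL10L, a retrogene copy of RPL10 known from the testis, had 0 UMIs (unique molecular identifiers, the counted RNA molecules) in both libraries. RPL3L had 37 and 61 UMIs, and the other 53 had at least 100 UMIs in each library. A further 6 ribosomal protein genes, RPLP1, RPL14, RPS29, RPS24, RPS7 and RPS27A, carry no symbol in the files and get one only from the RefSeq gene table, so they enter only as an alternative.

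The study set the Guangdong small-eared spotted pig (GDSS) beside Yorkshire, with 1 droplet library (10x Genomics) per breed. Per the labels, both are untreated longissimus dorsi at P0, taken as 1 g per piglet, with red cells lysed and dead cells removed on magnetic beads. The labels call the cells intramuscular vascular stem cells. The number of piglets behind a library, their sex and age, and the meaning of P0 are not given in the sources used here. With 1 library per breed there is no test and no p-value: breed, animal, preparation and library cannot be told apart, and every interval below is an exact 95% interval that covers counting error only.

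A ribosome has a large and a small subunit, each an RNA core clad in many proteins that are made from separate genes and are needed in nearly fixed proportion. The mRNAs of these genes start with a pyrimidine tract through which growth signals set their translation, so the genes usually move as one block, and the block is large in cells that grow or prepare to divide. In muscle, satellite cells are the stem cells that rebuild fibres, and the stromal, vascular, glial and immune cells around them share the same basic ribosome. A few paralogs depart from the block: RPL3L replaces RPL3 in the ribosomes of striated muscle, and RPS27L is a close copy of RPS27 known as a target of p53.

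After filtering, 10582 GDSS and 12667 Yorkshire cells remained, with a median of 2873.5 and 3003 UMIs per cell. Cells entered one of 7 classes by marker genes (at least 3 markers of the class detected, and at least 2 more than of any other class), which placed 87.6% of GDSS and 52.1% of Yorkshire cells. The stromal class held 8205 GDSS and 2649 Yorkshire cells and the mural class, the cells of the vessel wall, 176 and 510. Markers of the gated class led in each of the 14 class sums, with 2343 CPM or more (CPM being UMI counts scaled to a common class total), and lymphocyte markers stayed under 679 CPM. The cells were gated on these class markers, so their lead is no independent check of the classes. Of the cell barcodes kept, 37 were shared by the libraries. The cells left without a class, 12.4% and 47.9%, had 17.7% and 20.5% of their UMIs on the members, and over all kept cells the share was 15.4% in GDSS and 18.7% in Yorkshire.

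The first question was which class gave most of its UMIs to ribosomal protein genes. In both libraries it was the satellite class, marked by PAX7, MYF5 and MYOD1. In GDSS satellite cells, the members took 23.0% of UMIs (95% interval 22.8 to 23.1%, 105 cells). In Yorkshire satellite cells they took 20.7% (20.7 to 20.8%, 1024 cells). The GDSS satellite share was 1.51-fold the stromal share of the same library (1.497 to 1.52), and the Yorkshire satellite share was 1.11-fold the stromal share there (1.10 to 1.11). The distance between satellite and stromal cells was thus of unequal size in the 2 libraries, and the difference was not tested. In GDSS the single cells of the 2 classes lay nearly apart: the 10th to 90th percentile of the share per cell ran from 19.0 to 27.9% in satellite cells and from 9.84 to 19.8% in stromal cells. In Yorkshire the same ranges, 16.0 to 25.7% and 12.7 to 24.7%, overlapped widely.

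**Figure D1:**
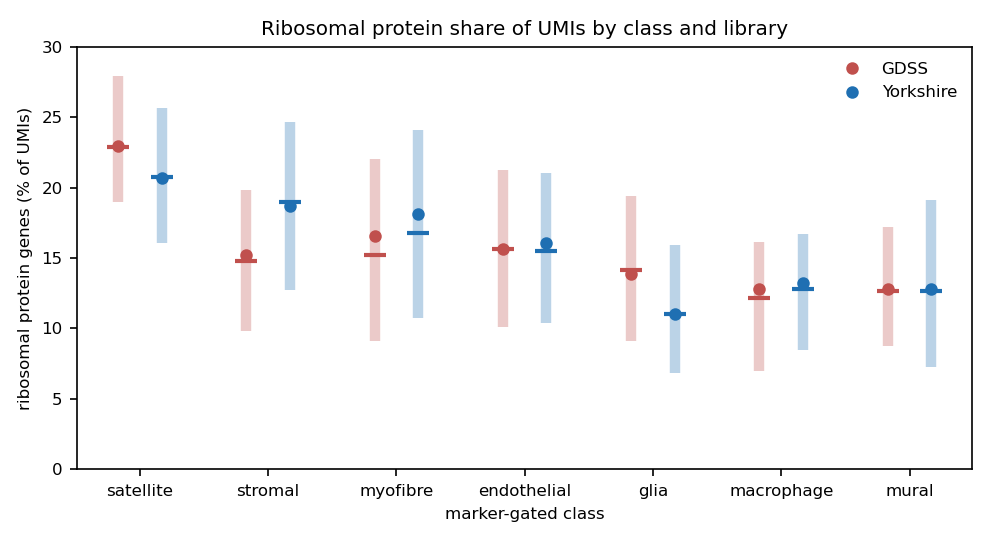
Share of UMIs on the 55 ribosomal protein genes (y axis, percent) in the 7 marker-gated classes (x axis). Points are the share of the class sum, horizontal bars the median cell and shaded bars the 10th to 90th percentile of cells; the satellite points, 23.0% in GDSS and 20.7% in Yorkshire, are the highest of each library.

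Below the satellite class the order differed between libraries. Stromal cells, the fibroblast-like cells that lay down matrix, had 15.2% in GDSS and 18.7% in Yorkshire. The myofibre class, gated on contractile genes such as ACTA1 and MYLPF, had 16.6% in GDSS (85 cells) and 18.1% in Yorkshire (551 cells). Both classes were thus higher in the Yorkshire library. Endothelial cells had 15.6% (246 cells) and 16.1% (1522 cells). Macrophages had 12.8% (253 cells) and 13.2% (102 cells), and mural cells, the contractile cells around vessels, had 12.8% (176 cells) and 12.8% (510 cells). These 3 classes differed by at most 1.03-fold between the libraries. Glial cells, which sheathe the nerves, had 13.9% in GDSS (203 cells) and 11.04% in Yorkshire (240 cells), the lowest Yorkshire share. In the myofibre class, satellite markers summed to 708 and 851 CPM and stromal markers to 2180 and 1297 CPM, against 129.8 and 127.0 CPM of myofibre markers in the satellite class. Whether other cells' RNA moved these shares was not tested.

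Cells of like depth gave the same leading class. Among cells with 2000 to 5000 UMIs, the satellite share was 23.8% in GDSS and 21.2% in Yorkshire, above the stromal 14.9% and 19.1%. The myofibre share differed with depth: in Yorkshire it was 14.8% in 222 cells under 2000 UMIs and 19.1% in 290 cells with 2000 to 5000. In GDSS it was 14.6% in 62 cells and 18.9% in 20 cells of these depths, so at like depth the libraries lay close. With the 6 genes named from the reference table added, the satellite shares became 27.0% and 24.4%, still the highest of each library. A looser gate asked for 2 markers and a lead of 1, and left DCN, COL1A1 and COL3A1 out of the stromal markers. It took 379 GDSS and 3576 Yorkshire satellite cells and gave 23.0% and 21.02%. A stricter gate with 28 and 303 cells gave 22.2% and 20.5%.

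Within the satellite class, gated states were compared. Satellite cells with PAX7, the factor that marks the uncommitted pool, and no MYOD1 UMI had 23.7% in GDSS (42 cells) and 21.02% in Yorkshire (211 cells). Yorkshire cells high in MYOD1, which commits the cell to muscle, had 20.7% (183 cells), and those with ANKRD1 and POPDC3 had 20.7% (187 cells). These 3 Yorkshire states lay close together, and their 10th to 90th percentiles overlapped almost wholly. The 25 cycling Yorkshire cells had the lowest satellite share, 16.3% (16.1 to 16.4%), at a median of 7333 UMIs against 3260 for the class. The GDSS library held 1 to 11 cells in each of its other satellite states, apart from a remainder of 40 cells with 23.4%, and no value is given for those.

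The second question was how the stromal states differed. Yorkshire was higher in 7 of the 8 states, and TNMD cells had the highest share in each library. Cells with TNMD, a gene of tendon-forming cells, had 18.3% in GDSS (214 cells) and 20.8% in Yorkshire (111 cells). Cells with PI16 and CCL26, PI16 being a marker of universal fibroblasts, had 15.7% (2380 cells) and 18.7% (419 cells). Cells with THBS4 and KERA had 15.0% (910 cells) and 18.1% (533 cells). The step between the libraries thus had the same direction and a like size in these 3 states. Cells with MME and FMO2 had 14.5% (511 cells) and 18.9% (205 cells), and those with HHIP and ART4 15.1% (149 cells) and 16.2% (43 cells). Cells with FMO1 and AOX1 had 16.2% (33 cells) and 19.4% (239 cells), and those with IRF8 and PBK 13.4% (430 cells) and 19.4% (23 cells). The exception was the state with CLDN1, a tight junction gene, and ITGB4, an integrin of epithelia and perineurial cells: it had 12.7% in GDSS (141 cells) and 12.3% in Yorkshire (94 cells), 1.03-fold higher in GDSS (1.02 to 1.05). It had the lowest share of the 8 states in each library. Cells with no state had 14.9% and 19.6%.

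**Figure D2:**
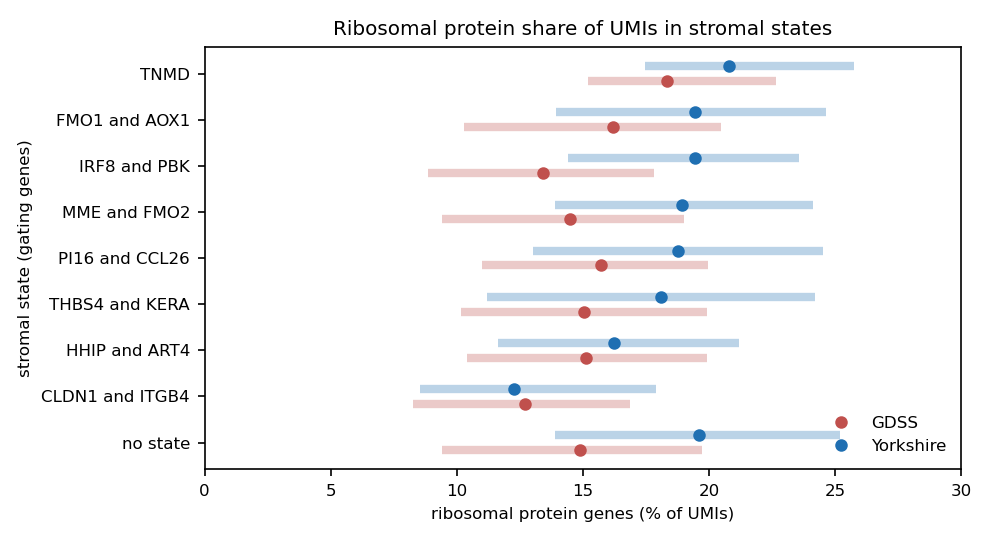
Share of UMIs on ribosomal protein genes (x axis, percent) in the 8 stromal states and in stromal cells with no state (y axis). Points are shares of the summed UMIs and bars the 10th to 90th percentile of cells; the Yorkshire point lies right of the GDSS point in every row except CLDN1 and ITGB4 (12.7% in GDSS, 12.3% in Yorkshire).

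The contrast of the libraries had no common direction over the classes. The share in stromal cells was 1.23-fold higher in Yorkshire (1.23 to 1.23), a log2 GDSS over Yorkshire ratio of -0.30. In satellite cells it was 1.11-fold higher in GDSS (1.10 to 1.12; log2 0.15), and in glial cells 1.26-fold higher in GDSS (1.24 to 1.27; log2 0.33). In myofibre cells it was 1.09-fold higher in Yorkshire (1.08 to 1.10). Myofibre cells of like depth lay closer, with 14.6% in GDSS and 14.8% in Yorkshire under 2000 UMIs, and 18.9% and 19.1% at 2000 to 5000. In mural cells the ratio of GDSS to Yorkshire was 1.00 (0.994 to 1.01). Under 2000 UMIs the mural shares were 12.7% and 15.2%, and at 2000 to 5000 UMIs 12.7% and 12.4%. The endothelial ratio, 1.03-fold higher in Yorkshire (log2 -0.04), turned to 0.07 on the log2 scale in cells with 2000 to 5000 UMIs, so no direction is read from it. Erythroid markers summed to 746 CPM in GDSS endothelial cells and 22.2 CPM in Yorkshire endothelial cells.

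The stromal ratio shrank under scalings less sensitive to a few abundant genes. With edgeR's TMM factors it was -0.14 on the log2 scale, and with median-of-ratios size factors -0.14, so Yorkshire stayed higher. Genes of the stress and immediate early response, which dissociation of tissue can induce, took 3.64% of stromal UMIs in GDSS and 1.92% in Yorkshire, and without those 10 genes in the total the ratio was -0.27. In satellite cells they took 3.01% and 2.51%, and in macrophages 0.673% and 1.52%. Their part in the ribosomal protein shares beyond this was not tested. With the 8 stromal states at equal weight the ratio was -0.25.

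The third question was which members break the common pattern. For each class and library, the level of a member in the class was divided by its mean level over the other 6 classes, and the departure is the log2 of this ratio minus the median over the members. A member was off the pattern where the departure was at least 1.5-fold (0.585 on the log2 scale) in the same direction in both libraries. Levels are in CPM and are not divided by transcript length, so they are compared between classes and not between genes. The block as a whole was 1.60-fold (GDSS) and 1.39-fold (Yorkshire) higher in satellite cells than in the other classes. It was 0.849-fold and 0.678-fold in glial cells, 0.789-fold and 0.774-fold in mural cells, and 0.778-fold and 0.824-fold in macrophages.

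Around these medians the members moved nearly as one. Of the 53 members with at least 100 UMIs in each library, 2 were off the pattern in some class, RPS27L and RPL7, and RPL3L made 3 of 55. Over all genes with that minimum of UMIs, set against the median of all genes, 77.6% of 9720 were off in at least 1 class. The members were set against their own median, which takes out their shared shift, so these shares are not like for like. Among genes with at least 10000 UMIs in each library, members included, it was 78.4% of 296, and 1 of the 50 members at that depth, RPL7. The median size of the departure over these 50 members was between 0.08 and 0.17 on the log2 scale in every class and library.

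**Figure D3:**
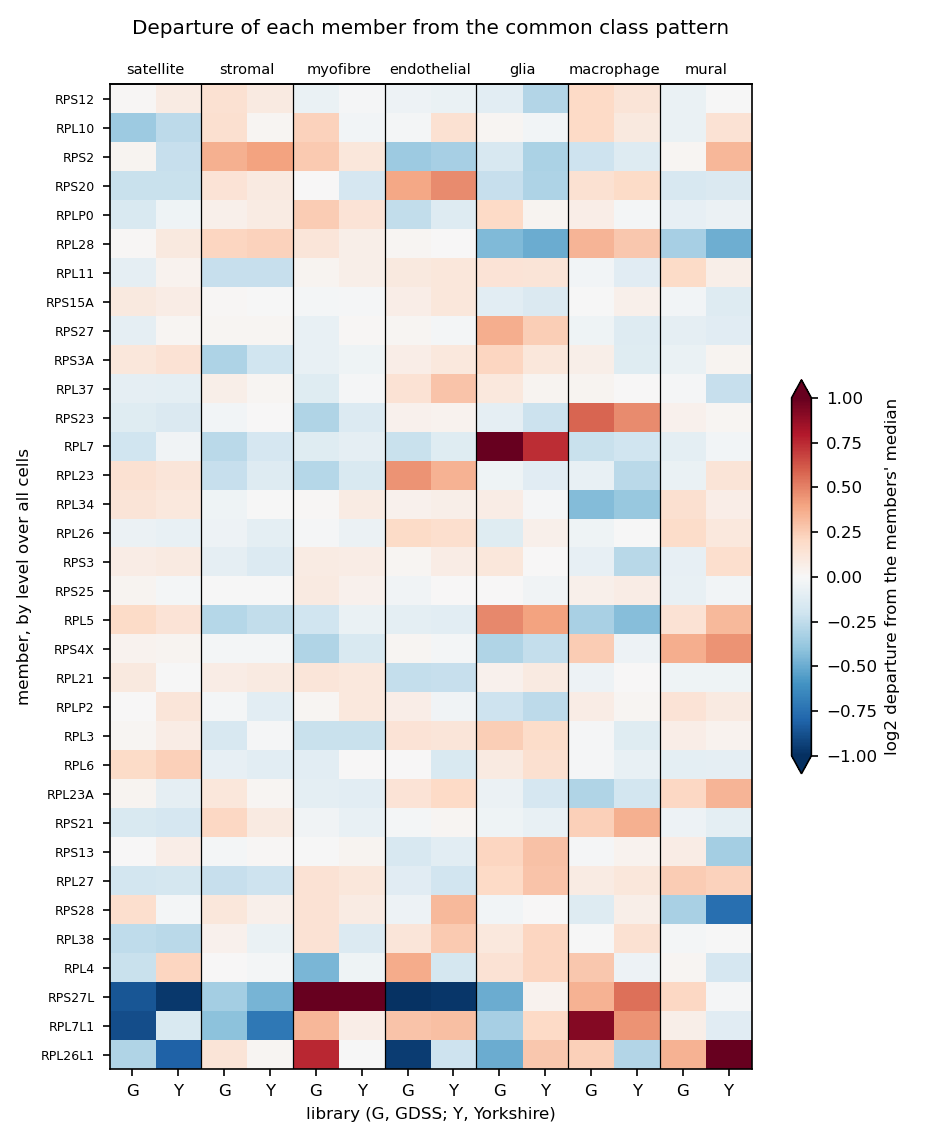
Departure of the measured members named in the text (34 of them, rows, by level over all cells) from the members' median in each class (columns, G for GDSS and Y for Yorkshire). Colour is the log2 departure and saturates at 1 in size; RPS27L (dark in myofibre, satellite and endothelial columns) and RPL7 (dark in glia) stand out in both libraries, while most cells of the map are pale.

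RPS27L (ENSSSCG00000023158), the p53-regulated copy of RPS27, was high in myofibres. In GDSS it had 558 CPM in myofibres and between 135.8 CPM (endothelial) and 248 CPM (macrophage) in the other classes. In Yorkshire it had 488 CPM in myofibres and between 123.9 CPM (endothelial) and 268 CPM (macrophage) elsewhere. The myofibre value lay above those of the other 6 classes in each library. Its departure in myofibres was 1.42 in GDSS and 1.16 in Yorkshire on the log2 scale, that is 2.67-fold and 2.24-fold above the pattern. In satellite cells it was low, by -0.86 and -0.97, and in endothelial cells by -0.99 and -0.97. The high myofibre level is part of the mean that these 2 classes were set against. The low calls are thus not separate from the myofibre excess, and their size without myofibres was not tested. The level of RPS27L in satellite cells, 225 and 169 CPM, was near that in stromal cells, 194 and 202 CPM, so it showed little of the satellite excess of the other members.

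Between 29.6% (GDSS glia) and 76.5% (Yorkshire macrophages) of the cells of a class had an RPS27L UMI, and in myofibres 55.3% and 61.2% did, at the lowest median depths of the classes, 1751 and 2245 UMIs. The 10 cells with most RPS27L held 44.3% of its 97 UMIs in GDSS myofibres and 10.5% of its 712 UMIs in Yorkshire myofibres. The GDSS value thus rests on few cells. The median myofibre gave 0.214% (GDSS) and 0.176% (Yorkshire) of its ribosomal protein UMIs to RPS27L, against 0.151% and 0.173% in macrophages. At the 90th percentile it was 1.34% and 1.21%, against 0.530% and 0.429%. The lead over macrophages thus lay more in the upper cells than in the median cell. The call in satellite cells ended in GDSS under the looser gate (-0.579), and that in endothelial cells under the looser gate (-0.53) and in cells with 2000 to 5000 UMIs (-0.56). The myofibre departure under the looser gate was 0.61 and 0.62, just past the threshold. RPS27 itself, the parent gene and a zinc finger protein of the small subunit, kept to the block, with myofibre departures of -0.08 and 0.01 and levels of 3342 and 4335 CPM there.

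RPL3L (ENSSSCG00000032657), the striated muscle form of RPL3, reached its highest level per UMI in the myofibre class of both libraries. It had 13 UMIs in 11 of 85 GDSS myofibres, 74.8 CPM, and 38 UMIs in 30 of 551 Yorkshire myofibres, 26.0 CPM. In the other 6 classes, 0 to 16 UMIs were counted, at most 3.95 CPM, with 0 UMIs in GDSS satellite, endothelial, mural and macrophage cells and 16, more than in the myofibres, in the far more numerous GDSS stromal cells. The share of cells with a UMI was 12.9% (6.64 to 22.0%) and 5.44% (3.70 to 7.68%) in myofibres. In stromal cells, taken as the class that should lack the gene, it was 0.195% and 0.189% at median depths of 3010 and 3670 UMIs, deeper than the myofibres. With classes under 3 UMIs set to 3, the level was 16.0-fold above the pattern in GDSS and 11.5-fold in Yorkshire (3.52 on the log2 scale). On the log2 scale the GDSS departure ran, over the alternatives that gave a value, from 2.82 with at most 5% mitochondrial UMIs to 6.56 with a minimum of 20 UMIs. In cells with 2000 to 5000 UMIs the Yorkshire departure fell to 0.84 and GDSS gave no value, so the call in both libraries ended there. RPL3, its partner near the peptidyl transferase centre, stayed at 2134 and 2150 CPM in myofibres, with a departure of -0.23 in both libraries. In Yorkshire myofibres this was the lowest departure of the 50 members with at least 10000 UMIs in each library, though under the threshold for a call. In GDSS myofibres it was not: the lowest of these members there was RPL4 at -0.46.

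RPL7 (ENSSSCG00000032111), a protein of the large subunit, was the only deep member off the pattern, and it was so in glia. Its level in GDSS was 6528 CPM in glia, 5526 CPM in satellite cells and between 2925 CPM (macrophage) and 4055 CPM (myofibre) in the other 5 classes. In Yorkshire it was 3390 CPM in glia and 3939 CPM in satellite cells, with 2282 to 3326 CPM in the others. Glia thus led in GDSS and came after satellite cells in Yorkshire, although glia had a low share of the block in both. The departure was 1.02 in GDSS and 0.74 in Yorkshire, 2.03-fold and 1.67-fold above the pattern, and it stayed between 0.97 and 1.04 and between 0.62 and 0.80 over the 9 alternatives.

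The excess of RPL7 was present across glial cells rather than in a few. The median glial cell gave 4.59% of its ribosomal protein UMIs to RPL7 in GDSS (10th to 90th percentile 2.54 to 6.79%) and 2.95% in Yorkshire (1.48 to 4.89%). The medians of the other 6 classes were 2.15 to 2.35% in GDSS and 1.62 to 1.90% in Yorkshire. Glia and the other classes overlapped at the level of single cells and their medians did not. Glial marker genes summed to 7776 CPM in GDSS and 20296 CPM in Yorkshire, and stromal markers to 3283 and 3500 CPM in the glial class, and their part in the RPL7 departure was not tested.

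**Figure D4:**
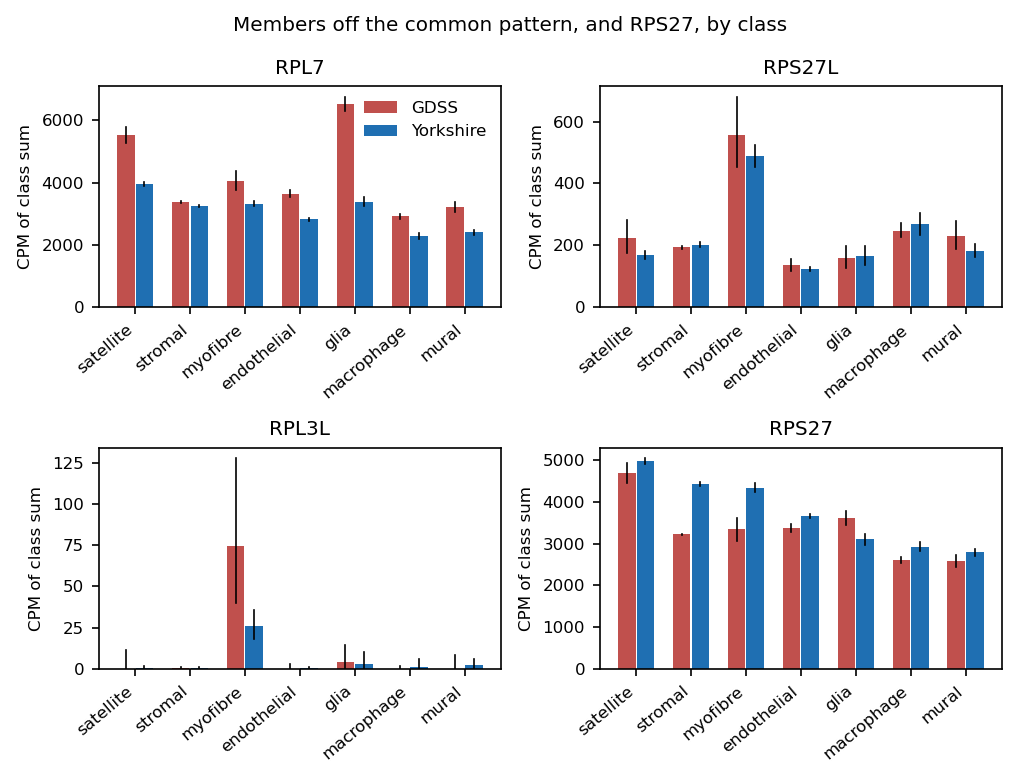
Levels of RPL7, RPS27L, RPL3L and RPS27 (y axes, CPM of the class sum, each panel with its own scale) in the 7 classes (x axes). Bars are class sums with exact 95% Poisson intervals; RPL7 peaks in GDSS glia (6528), RPS27L (558 and 488) and RPL3L (74.8 and 26.0) in myofibres, and RPS27 does neither.

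Several members departed in the same direction in a class of both libraries without passing the threshold, many of them well under it. In macrophages, RPS23, a protein of the decoding centre, was 0.58 in GDSS and 0.47 in Yorkshire above the pattern on the log2 scale, and RPL34 was -0.43 and -0.38. In endothelial cells RPS20 was 0.38 and 0.48, and RPL23 0.45 and 0.35. Different members thus led in different classes. RPL5, which with RPL11 carries the 5S RNA and can bind MDM2, was 0.48 and 0.40 in glia, the class where RPL7 was also high, and -0.32 and -0.42 in macrophages. RPL28, a protein of the eukaryotic large subunit, was low in glia (-0.44 and -0.49) and mural cells (-0.33 and -0.49). RPS4X, encoded on the X chromosome, was 0.36 and 0.45 in mural cells. In stromal cells RPS2, at the mRNA entry of the small subunit, was 0.36 and 0.40. In satellite cells the furthest deep members were RPL10, which joins the large subunit late in its assembly, at -0.36 and -0.26, and RPL38, at -0.25 and -0.27, while RPL6 was 0.19 and 0.24 above.

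The stalk proteins among the members kept to the block, and RPLP1, which carries no symbol in the files, was left out. RPLP0 and RPLP2, acidic proteins that recruit elongation factors to the large subunit, showed no departure past the threshold in any class. RPLP0 had 6606 and 6452 CPM in satellite cells against 4775 and 6149 CPM in stromal cells. RPLP2 had 3312 and 3856 CPM in satellite cells against 2114 and 3007 CPM in stromal cells. Both were thus higher in satellite than in stromal cells of each library. RPS12, a small subunit gene among the members with most UMIs over all kept cells, did likewise. It had 10308 and 11137 CPM in satellite cells against 7250 and 9966 CPM in stromal cells.

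The remaining copies were scarce. RPL7L1, a relative of RPL7 that acts in ribosome assembly, had 82.2 CPM over all kept GDSS cells and 116.8 CPM over Yorkshire cells. Its macrophage departure was 0.92 in GDSS and 0.45 in Yorkshire, and its stromal departure -0.41 and -0.71, so it passed in 1 library each time. RPL26L1, a near copy of RPL26, had 42.4 and 29.6 CPM over all cells and departures of 0.35 and 1.01 in mural cells and -0.30 and -0.81 in satellite cells. Neither departed past the threshold in both libraries in any class. Ribosomal protein genes have many near-identical processed copies in mammalian genomes, and how the authors' counting treated reads that match several is not stated in the labels, so the level of any member is uncertain on this point.

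Within the stromal class, the TNMD state alone had members off the pattern of the other states. RPS2 (ENSSSCG00000033697) had 11828 CPM in GDSS TNMD cells and 14394 CPM in Yorkshire TNMD cells, against means of 6548 and 8446 CPM over the other 7 states. Its departure was 0.63 and 0.66. RPS2 in TNMD cells thus ran 1.55-fold and 1.58-fold ahead of the block. RPL7L1 was low there, 37.8 CPM (57 UMIs) and 49.9 CPM (38 UMIs) against 65.4 and 90.6 CPM, a departure of -1.01 and -0.97. These 2 of 53 members compare with 25.4% of 6403 genes measured in TNMD cells. In the other 7 states 0 of 53 members were off, beside 7.89% of genes for CLDN1 and ITGB4, 4.35% for FMO1 and AOX1, 4.82% for HHIP and ART4, 3.55% for IRF8 and PBK, 5.77% for MME and FMO2, 4.71% for PI16 and CCL26, and 3.4% for THBS4 and KERA. RPL28 was the next in TNMD cells at 0.31 and 0.38, and it lies on the same side as RPS2.

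The last question was which members differed between the libraries within a class, a call being a level at least 1.5-fold apart with at least 100 UMIs over both sums. The share of all genes called, given beside each count here and below, was not matched in depth. Over the class sums, 50 of 53 members had at least 10000 UMIs in each library, against 296 of 9720 genes. Counting error thus weighs more on the genes than on most members. In stromal cells the members' median log2 ratio of GDSS to Yorkshire was -0.30, beside a median of -0.14 over all 10248 genes measured, and 48 of 53 were lower in GDSS. Past the threshold, 0 members were higher in GDSS, where 6.5% of genes were, and 4 were higher in Yorkshire, where 16.9% of genes were. Among these, the small subunit gene RPS21 was 1.51-fold higher in Yorkshire (1646 CPM in GDSS and 2489 CPM in Yorkshire), RPL37 1.503-fold (2832 and 4257 CPM) and RPS20 1.502-fold (5029 and 7553 CPM). RPS21 was called under 8 of 11 alternatives, and RPL37 and RPS20 under 5, and TMM and size factors moved every member by 0.16 on the log2 scale. At the other end, RPL26L1 (44.4 and 37.4 CPM), RPS13 (1822 and 1738 CPM), RPL7 (3380 and 3240 CPM) and RPL21 (2891 and 2792 CPM) were 1.04-fold to 1.19-fold higher in GDSS.

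In satellite cells the direction of the block was the opposite. The members' median was 0.17 in GDSS over Yorkshire, beside -0.15 over 4257 genes, and 42 of 53 members were higher in GDSS. Calls in GDSS were 2, where 9.7% of genes were called, and 1 in Yorkshire, where 26.6% were. RPL21, a large subunit protein, had 4516 CPM in GDSS and 2979 CPM in Yorkshire, 1.52-fold higher in GDSS (1.43 to 1.60). RPL26L1 was 2.08-fold higher in GDSS (1.17 to 3.50; 53.8 and 25.9 CPM) and RPL7L1 1.52-fold higher in Yorkshire (1.04 to 2.31; 88.7 and 134.6 CPM). Both intervals are wide at these counts. RPL21 and RPL7L1 were each called under 8 of 11 alternatives. Their log2 ratios went down to 0.40 for RPL21 with the stricter gate and to -0.22 for RPL7L1 with at most 5% mitochondrial UMIs. RPL26L1 gave a value under 7 alternatives and was called in each, between 0.87 and 1.14. It gave none with at most 5% mitochondrial UMIs, where no member was called. RPS13 (2856 and 2010 CPM), RPL7 (5526 and 3939 CPM) and RPL23 (5779 and 4266 CPM) were 1.35-fold to 1.42-fold higher in GDSS, and RPL4 was 1.34-fold and RPS21 1.17-fold higher in Yorkshire.

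In endothelial cells no member was called in either direction, where 10.8% of genes were called in GDSS and 13.6% in Yorkshire. The ends of the list were RPL7, 1.29-fold higher in GDSS (3647 and 2818 CPM), RPL21, also 1.29-fold, RPS13, 1.28-fold, and RPL23, 1.27-fold. On the other side stood RPS28, 1.45-fold higher in Yorkshire (1081 and 1570 CPM), RPL37, 1.35-fold, RPS21, 1.35-fold, and RPS20, 1.32-fold. RPL37, RPS21 and RPS20 were also calls in stromal cells, while RPS28 was 1.06-fold higher in GDSS in satellite cells. RPL4, on the Yorkshire side in satellite cells, was 1.19-fold higher in GDSS here.

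Calls in the smaller classes were few. In glia 6 of 52 members were called higher in GDSS, a share near the 9.58% of genes called there, and 0 in Yorkshire, where 19.9% were. These were RPL7 at 1.93-fold (1.83 to 2.03), RPS3, RPS3A, RPL23, RPS13 and RPL21 at 1.52-fold to 1.55-fold. In mural cells RPS13 was called, 1.72-fold higher in GDSS (1646 and 956 CPM), beside 8.94% of genes higher in GDSS and 16.7% in Yorkshire. In myofibres 2 members were called higher in Yorkshire, among them RPL4 (1.66-fold), beside 18.8% of genes in that direction and 8.85% in the other. In macrophages no member was called, beside 12% of genes in GDSS and 13.3% in Yorkshire.

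A fixed set of members thus leaned to one library in class after class, whichever way the block moved. After the members' median ratio of each class was subtracted, 28 of the 52 members measured in all 7 classes lay on the same side of it in every class, 13 towards GDSS and 15 towards Yorkshire. Over all genes measured in the 7 classes, set against their own median, 16.7% of 1218 did so. At a depth of at least 10000 UMIs in each library it was 28 of 50 members, 56% of them, against 15.5% of 265 genes. All 7 classes come from the same 2 libraries, so their agreement is no replication, and why the members lean was not tested.

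**Figure D5:**
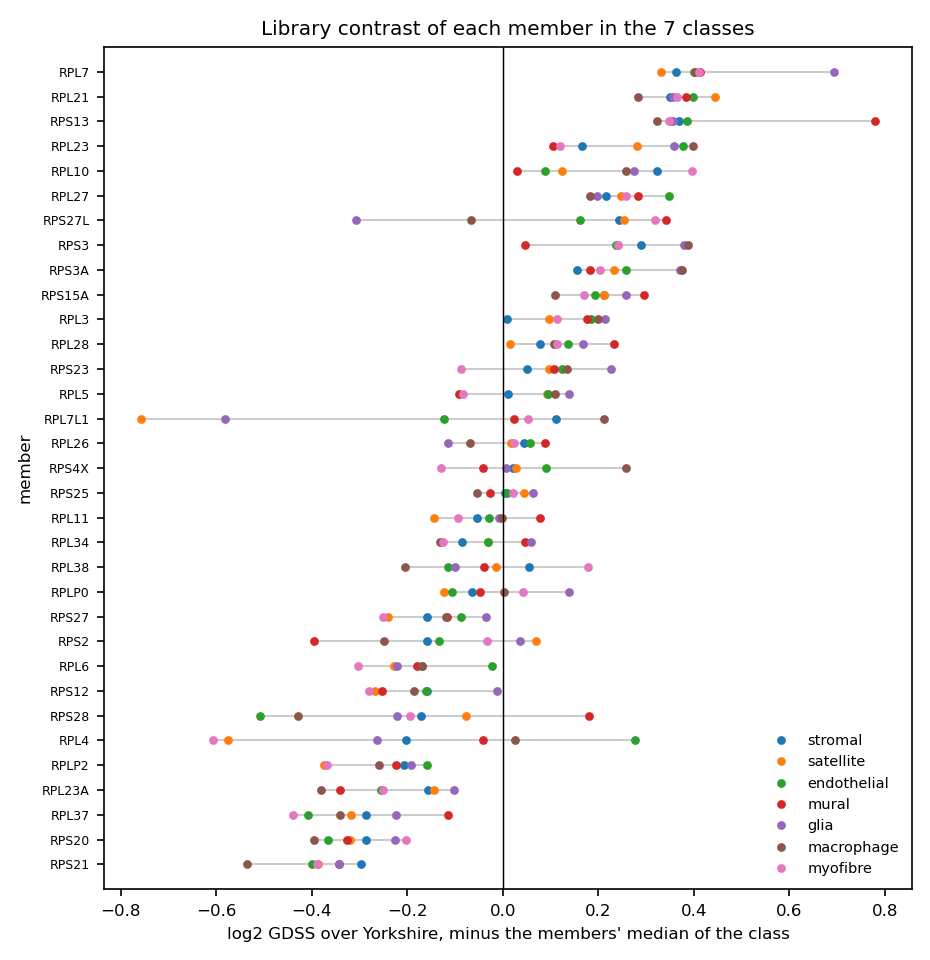
Log2 ratio of GDSS to Yorkshire minus the members' median of the class (x axis) for 33 of the 52 members measured in all 7 classes, those named in the text (rows); each point is 1 class and the grey line its range. RPL7, RPL21 and RPS13 at the top lie right of 0 in every class, and RPS21, RPS20 and RPL37 at the bottom left of it.

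RPL21 lay between 0.28 and 0.44 on the log2 scale towards GDSS over the 7 classes, RPS13 between 0.32 and 0.78, and RPL7 between 0.33 and 0.69. RPL27 lay between 0.18 and 0.35. The uncalled classes thus held the lean as well as the called ones. RPS3 and RPS3A, both near the path of the mRNA on the small subunit, RPL10, RPL23 and RPS15A were also on the GDSS side throughout. On the Yorkshire side, RPS21 lay between -0.54 and -0.30, RPS20 between -0.39 and -0.20 and RPL37 between -0.44 and -0.12. RPS12, RPLP2 and RPL23A were on that side too. Large and small subunit genes stood on both sides. RPS25 and RPL26 were among the members near the median, with values on both sides of it over the classes.

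Translation factors and related genes, many of which share the pyrimidine start, were set beside the block. Of 15 in the files, the summed share was highest in satellite cells in both libraries, 4.46% in GDSS and 4.05% in Yorkshire, against 3.04% and 3.08% in stromal cells. EEF1A1, which brings aminoacyl-tRNA to the ribosome, had 13845 and 11862 CPM in satellite cells against 9100 and 8731 CPM in stromal cells. RACK1, a scaffold on the small subunit, had 4684 and 4272 CPM against 2479 and 2954 CPM. In stromal cells 0 of the 15 were at least 1.5-fold apart between the libraries, with a median of -0.18, and in satellite cells 1 was higher in Yorkshire and 0 in GDSS, with a median of 0.13. The list's medians thus had the signs of the members' medians in these 2 classes, while in endothelial cells the list's median was 0.26 and the members' -0.04.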

How the data were processed

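Droplet single-cell RNA sequencing covered 1 GDSS and 1 Yorkshire library. The authors deposited raw UMI counts per gene and barcode, and the submitters' processing notes name Cell Ranger, and R 3.5.2 without a role. The matrix header gives software version 3.1.0. Build and annotation are not given in the sources used here. Barcodes, 12286 and 14695, summed to 42093851 and 54300953 counts, and none had under 500 UMIs.

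Cells were kept with at least 500 genes, at most 10% UMIs on 13 mitochondrial genes and a scrublet score under 0.3 (scanpy 1.11.5, expected rates 9.83% and 11.8%). The automatic threshold marked 0 GDSS cells and 2.92% of Yorkshire cells, so it did not work in GDSS; the fixed score removed 540 and 1156. Per class, 8 markers were listed (7 of the glial ones are in the files). A stromal state was the gene pair with most UMIs, at least 2, and states under 20 cells got no value. Counts were summed per class or state and library and scaled to their own total. Intervals are Clopper-Pearson for shares, Poisson for levels and conditional binomial for ratios, at 95%, and cover counting error only. Named members are the highest and lowest by level, the paralogs with their partners, the stalk genes and the furthest in each class, state and library contrast. Members and lists were chosen with earlier results of these data known. The steps were tested on simulated data. Symbols for 687 of 6455 unnamed features came from RefSeq (Sscrofa11.1). Scaling alternatives used edgeR 4.0.16 in R 4.3.3; other alternatives changed gates, filters, denominators, weights and count minimums. Figures by member draw those named in the text, and some items are not reported here.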

Additional observations from a re-analysis of the deposited data

Results flagged for a closer look

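The ribosomal protein share moved in opposite directions between the libraries in different classes. On the log2 scale, GDSS over Yorkshire, it was 0.149 in satellite cells and 0.33 in glial cells, against -0.297 in stromal cells. With 1 library per breed each class had 1 value per side, all of one went one way and all of the other the opposite way, and the difference between the classes was not tested.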

How the results depend on the processing

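No paired analysis was possible because each breed had 1 library, and for the same reason no replicate could be left out. The count of members off the class pattern was 3 under 8 of 9 alternatives and 4 with at least 800 genes per cell. The same count need not mean the same members: in cells with 2000 to 5000 UMIs it was 3 although RPL3L was not called. Values below are log2 ratios of the ribosomal protein share, and the cause of each change was not tested.

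Satellite over stromal in GDSS was 0.549 with the stricter gate, 0.672 in cells with 2000 to 5000 UMIs, 0.57 with at least 800 genes, 0.647 with every cell at the same weight and 0.607 without mitochondrial UMIs in the total. In Yorkshire it was 0.176 with at most 5% mitochondrial UMIs, 0.154 without them in the total and 0.185 with the looser gate, which was chosen after seeing the data.

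GDSS over Yorkshire in stromal cells was -0.28 with the stricter gate, -0.281 with at most 5% mitochondrial UMIs, -0.355 in cells with 2000 to 5000 UMIs, -0.292 with at least 800 genes, -0.292 with the 6 added genes, -0.342 with every cell at the same weight, -0.139 with TMM factors and -0.136 with size factors. The alternatives chosen after seeing the data gave -0.28 (looser gate), -0.271 (total without stress genes) and -0.25 (states at equal weight). In satellite cells it was 0.119 with the stricter gate, 0.132 with at most 5% mitochondrial UMIs, 0.167 in cells with 2000 to 5000 UMIs, 0.132 with at least 800 genes, 0.127 with the looser gate, 0.235 with TMM factors and 0.231 with size factors. In endothelial cells it turned to 0.0657 in cells with 2000 to 5000 UMIs. It was -0.0013 with the stricter gate, -0.0289 with the 6 added genes, -0.0539 with the looser gate, -0.00072 at equal weight, -0.0248 without mitochondrial UMIs, -0.0469 with TMM factors and -0.0529 with size factors.

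Members at least 1.5-fold apart in stromal cells numbered 2 without the doublet filter and with the looser gate, and 1 with at most 5% mitochondrial UMIs, TMM factors or size factors. In satellite cells they numbered 1 with the stricter gate and 0 with at most 5% mitochondrial UMIs, where RPL26L1 gave no value. In endothelial cells they numbered 1 with at least 800 genes and with the looser gate. Depth limits RPL3L, RPL26L1 and the GDSS satellite, glial, mural and myofibre classes most. The split of calls by direction over all stromal genes moved with scaling, from 6.5% higher in GDSS and 16.9% in Yorkshire to 10.6% and 10.5% with TMM factors.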

Other observations

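Ribosome assembly factors and ribosomal protein genes had median library ratios of opposite sign in satellite cells, a difference that was not tested. Of 13 in the files, 11 were measured in satellite cells, with a median log2 GDSS over Yorkshire ratio of -0.23. This compares with 0.17 for the ribosomal protein genes there and -0.15 over all genes measured, so the assembly factors lay near the median gene. At least 1.5-fold apart were 1 of the 11 in GDSS, where 9.7% of all genes were, and 2 in Yorkshire, where 26.6% were. Their summed share in satellite cells was 0.142% of 315789 UMIs in GDSS and 0.203% of 3827558 UMIs in Yorkshire. NCL, the nucleolar protein nucleolin, had 332.5 CPM in GDSS satellite cells and 819 CPM in Yorkshire satellite cells, and in stromal cells 181.1 and 325 CPM. It is the most abundant of the list in satellite cells and weighs most on the summed share. Not all went its way: FBL had 187 CPM in GDSS and 165 CPM in Yorkshire satellite cells. In endothelial cells 5 of 12 measured assembly factors were at least 1.5-fold higher in GDSS, where 10.8% of all genes were, and 0 in Yorkshire.

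The 70 genes of the mitochondrial ribosome, which translates the mitochondrial genome, had a share of 0.267% (GDSS) and 0.276% (Yorkshire) of stromal UMIs and a median log2 ratio of -0.04. Of 46 measured in satellite cells, 13 were at least 1.5-fold higher in GDSS, where 9.7% of all genes were, and 2 in Yorkshire, where 26.6% were. These 70 genes took 0.336% of the 315789 GDSS satellite UMIs, so the calls rest on few GDSS counts per gene. Their highest share in each library was in the myofibre class, 0.444% and 0.381%, where the cytosolic ribosomal protein genes were not at their highest.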
